A study of Bos taurus with 54 samples.

Results

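PTX3 and TNFAIP6 are 2 of the 32637 genes counted in whole blood of Holstein calves before and after heat stress. They are described as a pair because both encode secreted proteins that bind the hyaluronan matrix, and because earlier results of these same data showed higher levels of both after heat in libraries of both kits. The difference between the times is therefore how the pair was chosen, and no test of it is used as support. Adjusted p-values of it are given only as a limit, for fits that missed the threshold. For the pair, tests were otherwise kept for questions that played no part in the choice. These were the library kit, the sequence of sample numbers and the relation between the genes.

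PTX3 encodes pentraxin 3, a soluble pattern recognition molecule that binds microbes, complement components and P-selectin and that neutrophils hold ready-made in their specific granules. TNFAIP6 encodes TSG-6, a secreted protein with a link module that binds hyaluronan, transfers heavy chains of the inter-alpha-inhibitor onto it and binds chemokines such as CXCL8. Transcription of both genes is induced by interleukin-1, TNF and Toll-like receptor ligands, and both proteins are needed to build the hyaluronan matrix around the oocyte.

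Blood was taken from 15 Holstein male calves kept in climate-controlled rooms, once in the morning before heat (control) and once in the evening directly after 12 h of heat (heat stress). Red blood cells were lysed and RNA came from the pelleted cells. From it 3′ libraries were made with SMART-Seq v4 3′ DE (Takara) or QuantSeq 3′ (Lexogen) reagents. Each kit gave 27 libraries from the 29 RNA samples, and 25 RNA samples were sequenced with both. No evening sample without heat was among them, so the effects of heat and of the time of day cannot be told apart, and the calves served as their own controls in 12 pairs per kit. In bulk blood, fewer cells of a type and less RNA per cell cannot be told apart either.

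The 2 libraries of animal 20 are titled as evening samples, whereas the stated numbers of morning and evening samples leave this calf with a morning sample only. They were kept out of every comparison between times, which left 13 control and 13 heat stress libraries per kit, with 1 library per calf in each group. Reads on genes ranged from 5140595 to 20699030 in Takara and from 4516761 to 58521751 in Lexogen libraries. The deepest Lexogen library, that of animal 15 after heat, far exceeded the next, the control library of animal 29 (15607291). Markers of neutrophils, monocytes, T cells, B cells, platelets and erythroid cells were detected. The 8 erythroid markers, mostly HBB, summed to a median of 1730 CPM (counts scaled to the reads on genes) in Takara control libraries. In Lexogen control libraries this was 335 CPM. The 10 endothelial and stromal markers summed to at most 27.3 CPM in Takara and 72.7 CPM in Lexogen libraries. Sample numbers fall into a first run of 8 animals and a second run of 7 animals.

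In the ARS-UCD2.0 assembly, PTX3 lies on chromosome 1 from 110158197 to 110164262, within the span of VEPH1 (110066578 to 110343443). TNFAIP6 lies on chromosome 2 from 44747346 to 44763748 and overlaps no other annotated gene. Over all libraries, 22104 of the 22123 PTX3 reads in Takara and 13572 of 13576 in Lexogen were in the sense column. For TNFAIP6 these were 9759 of 9790 and 9422 of 9422. VEPH1 had counts in only 5 Takara and 2 Lexogen libraries, with a highest level of 1.30 and 3.51 CPM. Levels below are CPM, scaled to the reads on genes of the same library. They are compared between samples and never between the genes.

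PTX3 was low before heat and spread over more than 3 orders of magnitude after it. The low end of that span rests on 1 read of animal 3 in each kit. In the 13 Takara control libraries its lowest, median and highest levels were 0.363, 2.43 and 5.38 CPM (mean 2.40 ± 1.53, SD). In the 13 heat stress libraries they were 0.101, 58.1 and 417 CPM (mean 114.7 ± 136). After heat, 7 libraries lay above the highest control library, 5 lay within the control range and 1 lay below it, so the groups overlapped through one side of the heat stress group only. Lexogen libraries gave a lowest, median and highest control level of 0, 0.183 and 2.49 CPM (mean 0.674 ± 0.886), and 2 of the 13 control libraries held no PTX3 read. Their heat stress levels were 0.104, 7.84 and 449 CPM (mean 78.2 ± 132). Here 9 heat stress libraries lay above every control library and the other 4 within the control range.

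**Figure D1:**
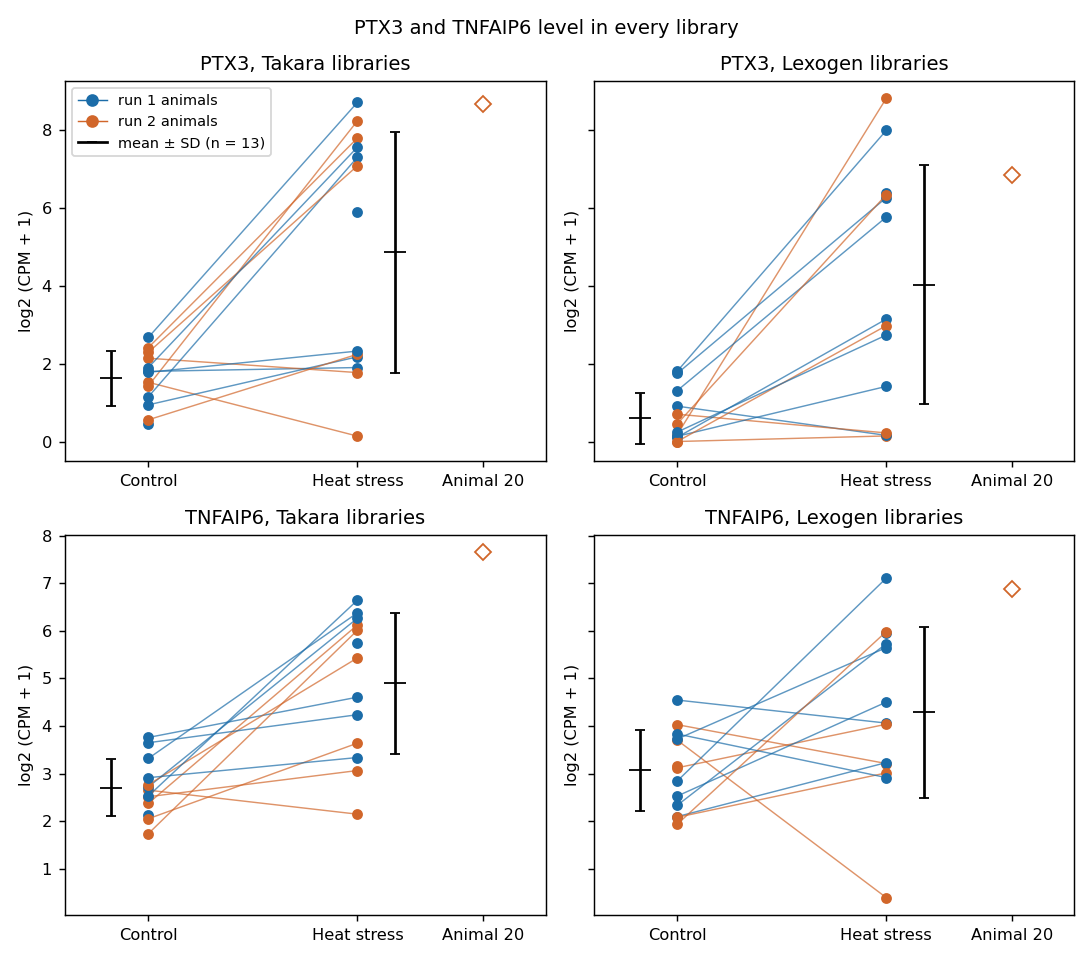
PTX3 (top) and TNFAIP6 (bottom) in every library, as log2 (CPM + 1) on the vertical axis, for control and heat stress libraries of each kit. Lines join the samples of 1 calf, colours mark the runs of sample numbers, black bars are the mean ± SD (n = 13) and the open diamond is animal 20, which is in no group. Heat stress levels of PTX3 fall into a low and a high set with no library between 4.002 and 58.1 CPM in Takara or between 7.84 and 53.3 CPM in Lexogen.

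PTX3 levels after heat were not spread evenly between these ends. In Takara, 6 calves lay at or under 4.002 CPM and the next library stood at 58.1 CPM, a 14.5-fold step with no library in it. The low libraries were those of animals 3 (0.101 CPM), 14 (2.41), 12 (2.73), 19 (3.52), 32 (3.73) and 41 (4.002). The high libraries were those of animals 29 (58.1 CPM), 36 (134), 18 (157), 40 (188), 16 (221), 7 (300) and 15 (417). Both runs of sample numbers supplied libraries on each side of the step. The widest step among Takara control libraries was 1.95-fold, between 0.472 and 0.920 CPM.

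A step stood at almost the same place in Lexogen libraries, from 7.84 to 53.3 CPM or 6.80-fold. Below it lay animals 3 (0.104 CPM), 12 (0.115), 14 (0.165), 23 (1.67), 41 (5.65), 32 (6.86) and 19 (7.84). Above it lay animals 29 (53.3 CPM), 18 (75.8), 36 (79.9), 15 (82.8), 40 (253) and 16 (449). All 12 calves with a heat stress library of both kits were on the same side of the step in both, 6 above and 6 below, so the side a calf took was the same whichever kit was used. A step was sought after the values had been seen, with 2 units on the log2 (CPM + 1) scale as its least width. Its place depends on that scale. By ratio alone, the gaps from 0.101 to 2.41 CPM in Takara and from 0.165 to 1.67 CPM in Lexogen were wider. Their lower ends rest on 1 read (animal 3) and 2 reads (animal 14).

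Most calves had more PTX3 after heat than before, and the size of the difference varied widely among them. In Takara, 10 of 12 calves were higher after heat, with a mean difference of 3.05 ± 3.01 on the log2 (CPM + 1) scale (SD, n = 12) and a range from -1.38 to 6.80. The largest was that of animal 7, from 1.69 to 300.0 CPM, followed by animal 18, from 1.22 to 157 CPM, and animal 15, from 5.38 to 417 CPM. Animals 12 and 41 hardly differed between the times, with 2.48 and 2.73 CPM in the first and 2.43 and 4.002 CPM in the second. PTX3 was lower after heat in animal 3 (1.87 to 0.101 CPM) and animal 14 (3.40 to 2.41 CPM). In all, 6 of 12 calves were higher after heat by more than 2 on the log2 (CPM + 1) scale.

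Lexogen pairs were alike in number. PTX3 was higher after heat in 10 of 12 calves, with a mean log2 difference of 3.20 ± 2.89 (SD, n = 12) and a range from -0.75 to 8.64, and 8 calves were higher by more than 2 on this scale. Animal 16 had the largest difference, from 0.131 to 449 CPM, and animal 40 went from 2.49 to 253 CPM. Animals 12 (0.877 to 0.115 CPM) and 14 (0.625 to 0.165 CPM) were lower after heat. Of these, animal 14 was lower in both kits. Their direction in Lexogen rests on few reads, 8 before and 1 after heat in animal 12, and 4 and 2 in animal 14. Animal 3 counted as higher on 0 reads before and 1 read after heat, and in Takara it was lower (23 and 1 reads). Within the first run 6 of 6 Takara and 6 of 7 Lexogen pairs were higher after heat, and within the second run 4 of 6 and 4 of 5.

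TNFAIP6 was present in every library and shifted upward, with less overlap between the times than PTX3 in Takara and more in Lexogen. Its lowest, median and highest levels in Takara were 2.33, 5.28 and 12.5 CPM in control libraries (mean 6.06 ± 3.14) and 3.43, 42.2 and 99.1 CPM in heat stress libraries (mean 42.9 ± 32.8). After heat, 9 of 13 libraries lay above the highest control library and 4 within the control range. In Lexogen the control values were 2.83, 7.70 and 22.4 CPM (mean 8.86 ± 5.87) and the heat stress values 0.313, 15.7 and 137 CPM (mean 34.3 ± 38.2). Only 5 Lexogen heat stress libraries lay above the highest control library, 7 were within the control range and 1 was below it.

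The low TNFAIP6 value was again that of animal 3, at 0.313 CPM in Lexogen, where the next library was animal 41 at 6.55 CPM. The same calf had the lowest Takara level after heat, 3.43 CPM. No step like that of PTX3 divided the other heat stress libraries of TNFAIP6, whose Takara levels ran from 7.37 CPM (animal 14) through 23.4 (animal 12) and 42.2 (animal 16) to 99.1 CPM (animal 18).

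Per calf, TNFAIP6 was higher after heat in 11 of 12 Takara pairs, by 2.08 ± 1.68 on the log2 (CPM + 1) scale (SD, n = 12), with a range from -0.50 to 4.28. Animal 36 had the largest difference, from 2.33 to 63.6 CPM, and animal 18 went from 4.77 to 99.1 CPM. Lexogen pairs were less uniform, with 8 of 12 calves higher after heat, a mean log2 difference of 1.09 ± 2.24 and a range from -3.31 to 4.27. The 4 calves that were lower were animal 3 (12.0 to 0.313 CPM), animal 12 (22.4 to 15.7 CPM), animal 14 (15.3 to 8.26 CPM) and animal 41 (13.3 to 6.55 CPM). These 4 and animal 29 (12.2 to 49.2 CPM) held the 5 highest control levels of TNFAIP6 in Lexogen.

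On the log2 (CPM + 1) scale, spread among calves after heat set PTX3 apart from nearly every other gene. Its SD of log2 (CPM + 1) over the 13 heat stress libraries was 3.10 in Takara, rank 4 of 12620 genes, against a median of 0.53 over all of them. In Lexogen it was 3.06, rank 5 of 11108, against a median of 1.04. TNFAIP6 ranked 148 in Takara (SD 1.48) and 191 in Lexogen (SD 1.80). Before heat the ranks of PTX3 were 946 (SD 0.70) and 6753 (SD 0.65), and those of TNFAIP6 were 1639 (SD 0.60) and 4714 (SD 0.85).

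Fitted over all genes with edgeR, the log2 fold change of PTX3 between the times was 6.09 (SE 0.95) in Takara, the 4th highest of 12620 genes, and 6.91 (SE 1.06) in Lexogen, the highest of 11108. These correspond to 68.3-fold and 120-fold. TNFAIP6 had log2 fold changes of 3.29 (SE 0.49; rank 48) and 2.03 (SE 0.54; rank 152), or 9.75-fold and 4.08-fold. Both genes were among the differentially expressed genes (DEGs, adjusted p under 0.05 in edgeR's quasi-likelihood test) of both kits, which is how they were chosen and carries no further weight. Of all genes tested, 28.9% were DEGs in Takara (18.4% higher after heat) and 5.55% in Lexogen (5.09% higher). With library sizes set to the total count on genes, Takara had 1301 higher and 2184 lower DEGs in place of 2325 and 1321, and the median log2 fold change of all genes moved from -0.05 to -0.27. PTX3 and TNFAIP6 then stood at 5.58 and 2.81.

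A fit with the calf as a block used only the 12 pairs per kit. It thus also left out the unpaired libraries of animals 23 and 29 in Takara and animals 7 and 15 in Lexogen. Its values were smaller, 4.14 (SE 1.12) and 5.42 (SE 0.96) for PTX3 in Takara and Lexogen and 2.51 (SE 0.57) and 1.28 (SE 0.71) for TNFAIP6. The last of these missed the threshold (adjusted p = 0.429, edgeR). TNFAIP6 in Lexogen also missed it without animal 18 (1.94, adjusted p = 0.0528), animal 36 (1.87, adjusted p = 0.0633) or animal 40 (1.58, adjusted p = 0.110). PTX3 in Lexogen reached the filter on low counts, about 1.03 CPM, in 3 control and 10 heat stress libraries, and it left the tested set when animal 18, 29 or 40 was left out.

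**Figure D2:**
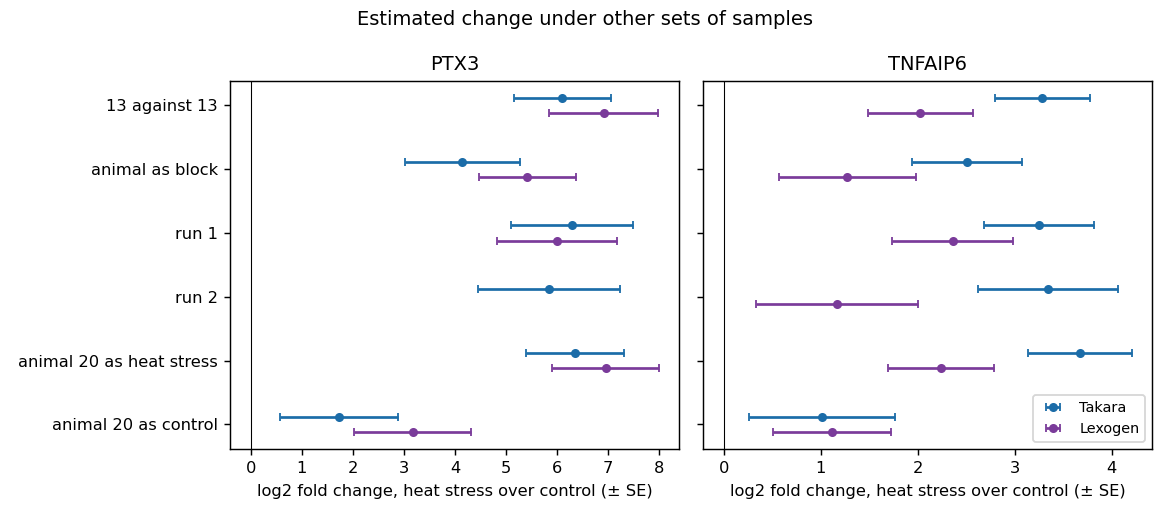
Fitted log2 fold change between heat stress and control (horizontal axis; bars are ± SE) of PTX3 and TNFAIP6 in each kit for 6 sets of samples. Estimates shrink with the calf as a block, a fit over the 12 pairs per kit only. They are lowest, 1.72 and 3.17 for PTX3 and 1.02 and 1.11 for TNFAIP6, when animal 20 is counted as control. PTX3 has no Lexogen value in run 2, where it did not pass the filter on low counts.

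The difference between the times was also estimated within each run of sample numbers. In Takara, PTX3 had log2 fold changes of 6.29 in the first run and 5.84 in the second, and TNFAIP6 had 3.25 and 3.35. In Lexogen, PTX3 had 5.99 in the first run and did not pass the filter on low counts in the second. TNFAIP6 had 2.36 in the first Lexogen run and 1.17 (SE 0.83, adjusted p = 0.667, edgeR) in the second, where 3 of 5 pairs were higher after heat and 0 genes were called, with 1275 at an unadjusted p under 0.05. The interaction of run and time (second minus first run) was -0.55 (SE 1.68, adjusted p = 0.908) for PTX3 and 0.0052 (SE 0.91, adjusted p = 0.998) for TNFAIP6 in Takara. In Lexogen it was 3.10 (SE 2.02, adjusted p = 0.771) and -1.29 (SE 1.05, adjusted p = 0.849). These standard errors leave room for differences of several-fold. The same term was called for 2.58% of genes in Takara (0.571% with the larger change in the second run) and 0.018% in Lexogen (0.009%).

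Animal 20 resembled the high heat stress libraries. Its Takara library held 403 CPM of PTX3, 74.9 times the highest control library, and 201 CPM of TNFAIP6, 16.01 times the highest. Its Lexogen library held 113.3 CPM of PTX3 and 117.3 CPM of TNFAIP6, 45.4 and 5.25 times the highest control library. Levels cannot assign the sample to a time. Counted as heat stress, as titled, it gave log2 fold changes of 6.34 and 6.95 for PTX3 and 3.67 and 2.24 for TNFAIP6 in Takara and Lexogen. Counted as control it gave 1.72 and 3.17 for PTX3 and 1.02 and 1.11 for TNFAIP6, none of them past the threshold.

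The kits were next compared on the same RNA. Over 25 RNA samples with both libraries, PTX3 was 0.71 higher in Takara than in Lexogen on the log2 scale (SE 0.34), which did not pass the threshold (adjusted p = 0.0541, edgeR's quasi-likelihood test), where 72.3% of genes did. With the size factors of DESeq2 it was 1.01 (adjusted p = 0.00861), and the median of all genes moved from 0.22 to 0.55. TNFAIP6 differed by -0.33 (SE 0.21, adjusted p = 0.146). Over the 24 RNA samples of known time, the change of PTX3 was smaller in Takara than in Lexogen by 1.79 (SE 0.69) and that of TNFAIP6 larger by 1.01 (SE 0.39). Neither passed the correction (unadjusted p = 0.0126 and 0.0134, both adjusted p = 1), and the interaction was called for 0 of 13354 genes, with 526 at an unadjusted p under 0.05.

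**Figure D3:**
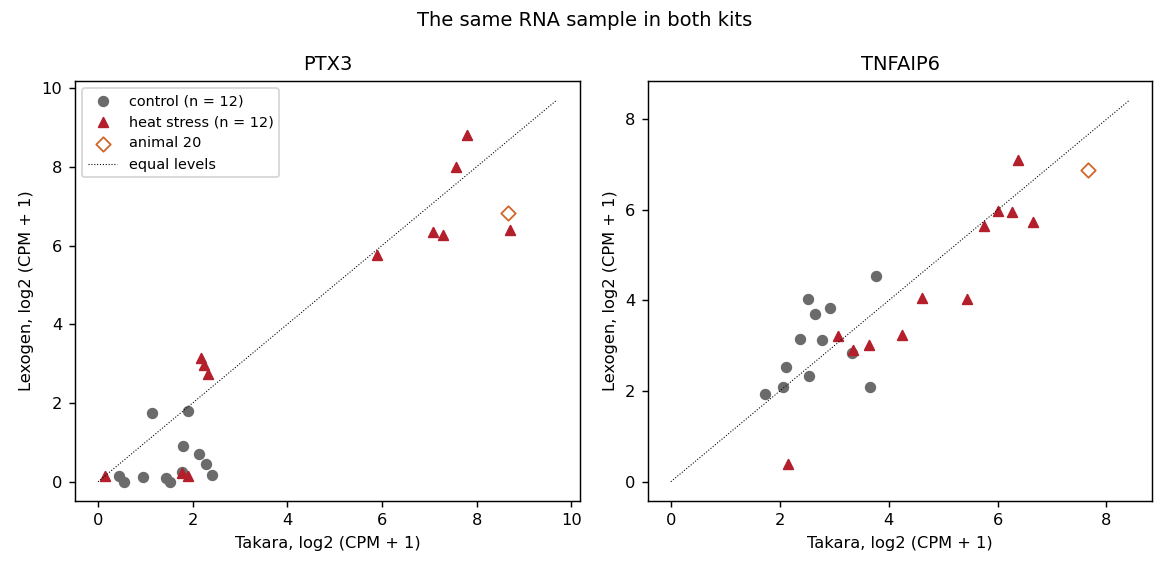
The same RNA sample in Takara (horizontal axis) and Lexogen (vertical axis) libraries, as log2 (CPM + 1), for PTX3 and TNFAIP6. Grey circles are control samples (n = 12), red triangles heat stress samples (n = 12), the open diamond is animal 20 and the dotted line marks equal levels. After heat, PTX3 gives 6 low and 6 high samples in both kits, and TNFAIP6 puts the calves in much the same order in both. For TNFAIP6 the lowest calf, animal 3, lies off the line, with 3.43 CPM in Takara and 0.313 CPM in Lexogen.

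After heat the kits ordered the calves alike in TNFAIP6. Over 12 RNA samples, Pearson's r of log2 (CPM + 1) was 0.941 (permutation p = 1e-05, the smallest that 100000 permutations can give; adjusted p = 1e-04 over 10 tests) and Spearman's rho was 0.923 (permutation p = 7e-05, adjusted p = 0.00035). Without the 2 samples farthest from the median, r was 0.926 (n = 10). Before heat the kits were less close, with r = 0.439 and rho = 0.490 for TNFAIP6 (n = 12; permutation p = 0.152 and 0.108) and r = 0.220 and rho = 0.476 for PTX3 (n = 12; permutation p = 0.497 and 0.119). PTX3 was not pooled after heat because of its step. Within the 6 samples below it r was 0.652 (rho 0.714) and within the 6 above it 0.402 (rho 0.771), with adjusted permutation p-values of 0.181 or more.

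Whether a calf with much PTX3 also had much TNFAIP6 was asked within each time and kit. After heat, the 7 Takara libraries with the most TNFAIP6 were those of the same 7 calves that lay above the PTX3 step. In Lexogen, 5 of the 6 libraries with the most TNFAIP6 lay above the step. Animal 16 broke the pattern there, with the highest PTX3 level of all (449 CPM) and 15.4 CPM of TNFAIP6, while animal 23 had 1.67 CPM of PTX3 and 21.7 CPM of TNFAIP6. In Takara, animal 16 had 221 CPM of PTX3 and 42.2 CPM of TNFAIP6, the lowest TNFAIP6 level of the 7.

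**Figure D4:**
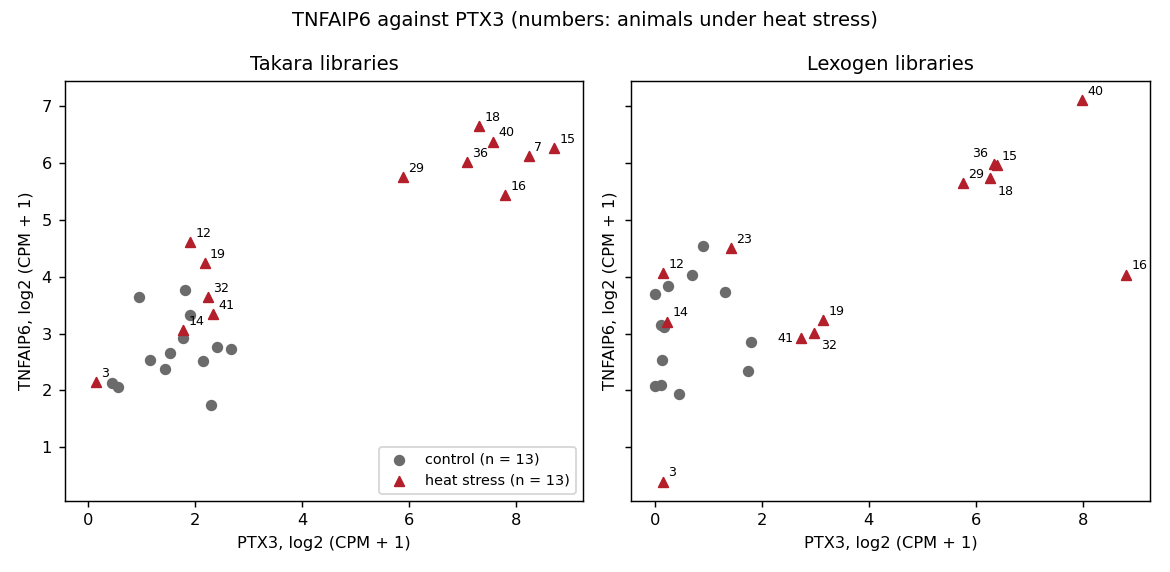
TNFAIP6 (vertical axis) against PTX3 (horizontal axis) in every library, as log2 (CPM + 1), for Takara and Lexogen. Grey circles are control libraries (n = 13), red triangles are heat stress libraries (n = 13) and the numbers name the calves. High PTX3 and high TNFAIP6 come together in 7 Takara libraries, whereas in Lexogen animal 16 has 449 CPM of PTX3 and 15.4 CPM of TNFAIP6.

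Finer relations between the genes were not detected. Before heat, r of log2 (CPM + 1) was 0.120 (permutation p = 0.693, rho 0.209) in Takara and 0.101 (permutation p = 0.739, rho 0.228) in Lexogen, over 13 calves each, and without the 2 calves farthest from the median it was -0.323 and 0.531. After heat no pooled value is given because PTX3 fell into separate sets. Among the 6 Takara libraries below the step r was 0.731 (exact permutation p = 0.103), and among the 7 above it 0.242 (exact permutation p = 0.608). The Lexogen values were 0.183 for the 7 below and -0.323 for the 6 above (exact permutation p = 0.798 and 0.565). For the difference between times, r was 0.840 over the 6 Takara calves below the step (exact permutation p = 0.0417), it became -0.195 without 2 calves, and its adjusted p over the 18 tests was 0.75. The other groups of calves gave 0.0489 (6 Takara calves above) and 0.502 (7 Lexogen calves below). Adjusted p-values of all 18 tests were 0.75 or more. With 6 or 7 calves, a moderate relation was not detectable.

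Genes most like PTX3 over the 26 Takara libraries were sought by Pearson's r of log2 (CPM + 1) among 9663 genes, as a description, since all genes of a library share its depth and cell makeup. The nearest was IL1R2, the decoy receptor of interleukin-1, with r = 0.976 (0.923 over the 26 Lexogen libraries). Its Takara level was 27.6 ± 17.3 CPM before heat and 1526 ± 1584 CPM after it (SD, n = 13). The second was CD44, the main cell surface receptor of hyaluronan, with r = 0.973, which was also the nearest gene in Lexogen (r = 0.934). CD44 had 195 ± 20.1 CPM before and 643 ± 469 CPM after heat in Takara. IL18RAP, a subunit of the interleukin-18 receptor (r = 0.971), UBE2H, a ubiquitin-conjugating enzyme (r = 0.969), and EYA3, a phosphatase and transcriptional coactivator (r = 0.969), followed. Their Lexogen values were 0.798, 0.882 and 0.871.

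TNFAIP6 was closest to TOP1, the gene of DNA topoisomerase I, with r = 0.963 in Takara and 0.778 in Lexogen, and to FBXO38, which encodes an F-box protein (0.960 and 0.719). NDEL1 (0.959 and 0.832), TBC1D23 (0.954 and 0.817) and SNX3 (0.952 and 0.471) followed. None of the 5 nearest genes of PTX3 was among the 5 of TNFAIP6, and TNFAIP6 ranked 132 of 9663 for PTX3. These values over 26 libraries span the step of PTX3 and pool both times, so they include the difference by which the pair was chosen. The 12 paired calves entered with both of their libraries. Within the 13 control libraries, r of IL1R2 with PTX3 was 0.689 in Takara and 0.224 in Lexogen. The 5 genes nearest to PTX3 had 0.508 to 0.695 there in Takara and 0.019 to 0.320 in Lexogen. Those nearest to TNFAIP6 had 0.605 to 0.864 and -0.412 to 0.528.

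Genes around the pair were grouped by role. Of 29 other pentraxins and genes of the hyaluronan matrix, 9 were tested in Takara, of which 5 rose and none fell, and 5 were tested in Lexogen, of which 1 rose (edgeR, adjusted p under 0.05). In all, 18.4% of genes rose in Takara and 5.09% in Lexogen. The list had a median log2 fold change of 0.60 and 0.16, against -0.05 and -0.08 over all genes. CD44 passed in both kits with 2.17 (SE 0.39) and 1.51 (SE 0.31). With the calf as a block 3 of 9 rose in Takara and 0 of 5 in Lexogen, so that CD44 passed there no longer. The Lexogen fit with the block called 63 of 11087 genes in all. The serum pentraxin APCS had no read in any group and CRP had at most 0.204 CPM on average, and HAS2, the hyaluronan synthase of the oocyte matrix, had counts in 1 Takara library and no Lexogen library. Genes for the heavy chains and bikunin that TSG-6 acts on (ITIH1, AMBP) were likewise at or near 0.

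CD44 also carried most of the summed level of these 29 genes. That sum after heat was 697 to 1433 CPM in the 7 highest Takara libraries, and at most 327 CPM in the other 6. Those 7 libraries were the ones above the PTX3 step. In Lexogen the 6 highest sums, 595 to 1240 CPM, also belonged to the 6 libraries above the step. CD44 alone averaged 643 CPM in Takara after heat, and neither PTX3 nor TNFAIP6 was part of the sum. Besides CD44, HYAL2 (1.99, SE 0.43), HYAL1 (0.97, SE 0.26), CEMIP2 (0.87, SE 0.22) and VCAN (0.60, SE 0.23) rose in Takara. In Lexogen CEMIP2 and VCAN did not pass and HYAL1 and HYAL2 were not tested. HAS3 (-0.64, SE 0.31), HYAL3 (-0.18, SE 0.21), CEMIP (-0.22, SE 0.42) and HMMR (0.01, SE 0.15) did not pass the test in Takara.

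Of 23 ligands of PTX3 and TSG-6, 15 were tested in each kit, and 4 rose in Takara and 1 in Lexogen, with none lower, where 18.4% and 5.09% of all genes rose. FCN1, a ficolin that binds PTX3, rose in both (1.55, SE 0.38, and 1.32, SE 0.36). With the calf as a block 4 ligands rose and 1 fell in Takara, and 0 of 15 passed in Lexogen, FCN1 included. CXCL8, a TSG-6 ligand, had 1.06 (SE 0.46) and 0.95 (SE 0.50), and SELP, the gene of P-selectin, had -0.17 (SE 0.22) and -0.28 (SE 0.35), and neither gene passed the test.

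The next list held inducers of the pair with their receptors and signalling genes. Of 24 interleukin-1, TNF and Toll-like receptor genes tested per kit, 12 rose in Takara and 7 in Lexogen and none fell. Among all genes 18.4% and 5.09% rose. IL1R2 rose by 6.29 (SE 0.95) and 5.72 (SE 0.90), and IL1RAP, the co-receptor of the interleukin-1 receptor, by 2.89 (SE 0.53) and 2.85 (SE 0.47). TLR4, the receptor of lipopolysaccharide, rose by 1.62 (SE 0.28) and 1.19 (SE 0.35), and NFKBIA, an inhibitor and target of NF-κB, by 2.01 (SE 0.38) and 1.64 (SE 0.34). The cytokine genes themselves did not pass the test in either kit, with 0.13 (SE 0.28) and -0.01 (SE 0.31) for IL1B and -0.17 (SE 0.21) and -0.96 (SE 0.51) for TNF.

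These counts depended on the fit. With the calf as a block, 11 of 25 signalling genes rose in Takara and 1 of 24 in Lexogen. That fit called 3162 of 12651 genes in Takara and 63 of 11087 in Lexogen. In the second run alone 2 of 25 rose in Takara and 0 of 24 in Lexogen, where 931 of 12661 and 0 of 11459 genes were called. With library sizes set to the total count 9 rose in Takara and 5 in Lexogen, and no DEG of any list changed sign under any of these fits.

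**Figure D5:**
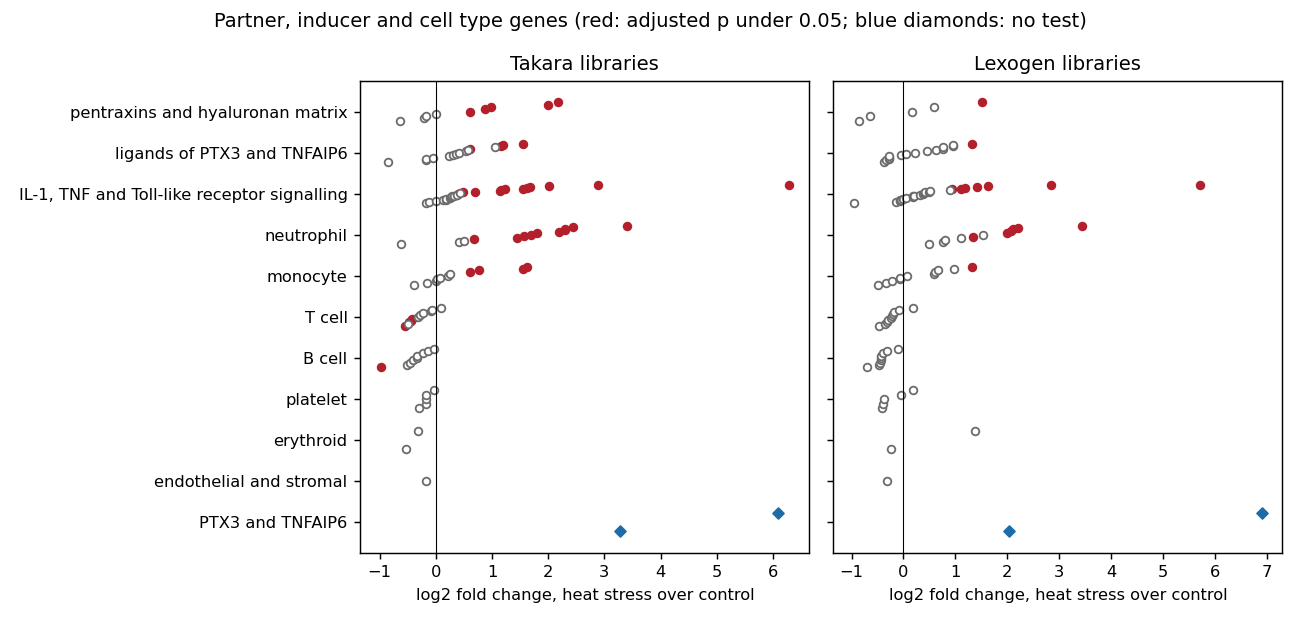
Log2 fold change between heat stress and control (horizontal axis) of every tested gene of 10 lists, 1 row per list, in each kit. Red points are genes with an adjusted p under 0.05 in edgeR's quasi-likelihood test, open points the other genes, and blue diamonds PTX3 and TNFAIP6, which carry no test. Neutrophil genes lie mostly to the right, with 10 of 13 and 6 of 11 called, where 28.9% and 5.55% of all genes were. T cell and B cell genes lie mostly to the left.

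Neutrophil genes mostly rose with the pair. Of 16 neutrophil markers, 13 were tested in Takara, of which 10 rose, and 11 in Lexogen, of which 6 rose, and none fell. Their median log2 fold change was 1.69 and 1.52. Of all genes 18.4% rose in Takara and 5.09% in Lexogen. ALPL, the alkaline phosphatase of neutrophils, rose by 3.41 (SE 0.58) and 3.44 (SE 0.62), and S100A12 and S100A9, which encode calcium-binding alarmins, by 2.29 (SE 0.42) and 2.18 (SE 0.40) in Takara and by 2.002 (SE 0.43) and 2.11 (SE 0.43) in Lexogen. MMP9, a gelatinase of neutrophil granules, rose by 2.44 (SE 0.45) and 2.21 (SE 0.67). In Takara, CSF3R (0.51, SE 0.27), CHI3L1 (0.41, SE 0.22) and ELANE (-0.62, SE 0.38) did not pass. CSF3R (0.80, SE 0.32) and CHI3L1 (0.49, SE 0.31) did not pass in Lexogen either, where ELANE was not tested. With the calf as a block, 10 of 13 neutrophil markers rose in Takara and 0 of 11 in Lexogen. Their median was then 1.56 and 1.43, and of all genes 3162 of 12651 and 63 of 11087 were called.

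The summed level of the 16 neutrophil markers was 4248 to 19775 CPM in Takara control libraries (median 13423) and 4631 to 76171 CPM after heat (median 41918). S100A12, S100A8 and S100A9 carried most of this sum, averaging 24292, 6539 and 5538 CPM in Takara after heat. They averaged 5625, 4967 and 1665 CPM in Lexogen after heat. After heat the 7 highest sums, from 41918 CPM upward, belonged to the 7 calves above the PTX3 step, and the next was 25306 CPM. The lowest, 4631 CPM, was that of animal 3, whose library also held the least PTX3 and TNFAIP6 of the Takara heat stress libraries. In Lexogen the sums were 1252 to 7184 CPM before heat and 1855 to 31512 CPM after it. There the 6 highest, from 14196 CPM upward, were again those of the 6 calves above the step, with the next at 10642 CPM. MMP8 was at 0 in all control libraries of both kits. The part of neutrophil number in the levels of PTX3 and TNFAIP6 was not tested.

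Lymphocyte markers were tested in the same way. Of 11 T cell markers tested in Takara 4 fell and none rose, with a median of -0.32, and their summed level had a median of 1605 CPM before and 1089 CPM after heat. The 7 highest T cell sums after heat included 1 calf above the PTX3 step. CD3D had a log2 fold change of -0.48 (SE 0.17) in Takara and -0.36 (SE 0.19) in Lexogen, and LCK -0.29 (SE 0.11) and 0.19 (SE 0.28). None of the 10 T cell markers tested in Lexogen passed the test. Of 9 B cell markers 1 fell in Takara, BLK with -0.98 (SE 0.38), where 1321 of all 12620 genes fell, and none passed in Lexogen. The Takara count was 0 with library sizes set to the total count and 4 with the calf as a block. MS4A1, the gene of CD20, had -0.14 (SE 0.15) and -0.43 (SE 0.21).

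Markers of other cell types were tested likewise. Of 11 monocyte markers 4 rose in Takara and 1 in Lexogen, FCN1 in both, where 18.4% and 5.09% of all genes rose. The monocyte median was 0.21 and 0.07. CD14 had 0.26 (SE 0.24) and -0.07 (SE 0.42). With library sizes set to the total count the medians were -0.04 and -0.0035. With the calf as a block 2 rose and 1 fell in Takara and none passed in Lexogen. The medians differed in sign between the runs, at -0.41 and 0.88 in the first and second run of Takara and at -0.39 and 0.51 in Lexogen, and none passed in the first run of either kit (edgeR). Summed monocyte levels had medians of 1565 and 1697 CPM before and after heat in Takara, and 3 of the 7 highest after heat belonged to calves above the PTX3 step. None of the 5 platelet markers tested passed in either kit, with PF4 at -0.17 (SE 0.23) and -0.38 (SE 0.35) and ITGB3 at -0.18 (SE 0.19) and -0.42 (SE 0.24). Their median was 0.32 in the first and -0.52 in the second run of Takara, and 0.09 and -0.27 in Lexogen. The erythroid gene HBB had -0.32 (SE 0.29) and -0.25 (SE 0.27) and ALAS2 -0.53 (SE 0.43) and 1.38 (SE 0.68), and neither passed. VWF, the only endothelial marker tested, had -0.17 (SE 0.31) and -0.31 (SE 0.70). Both of these lists also differed in sign between the runs in each kit, with none called.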

How the data were processed

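The authors trimmed the forward reads with Trimmomatic 0.39, checked them with FastQC 0.11.9 and MultiQC 1.14, and aligned reads to the ARS-UCD2.0 assembly (STAR 2.7.10b; versions from the submitters' processing notes), whose gene counting gave the deposited counts. These are raw whole-number counts per gene in columns for unstranded, sense and antisense reads. The column the authors analysed is not given in the sources used here, and the unstranded one was used. Lines that name no gene (reads unmapped, mapped to several places, outside genes or ambiguous) were left out, 32.8 to 57.9% of the reads in Takara and 32.2 to 46.7% in Lexogen. CPM was a gene's count scaled to the library's reads on genes. Of the gene IDs, 30271 matched the RefSeq annotation, 19630 of them with a gene name. The counts hold no molecular identifiers, so reads are not independent molecules. No 2 libraries were identical.

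The members and all gene lists were chosen with earlier results of these data known. Counts were tested with edgeR 4.0.16 in R 4.3.3 (filterByExpr with a minimum count of 10, TMM, quasi-likelihood test, Benjamini-Hochberg adjustment over all genes tested, threshold 0.05), with time as the only variable, as in the study's model. The kit effect and the interaction of kit and time took the RNA sample as a block, and the interaction of run and time was tested within a kit. Correlations used log2 (CPM + 1) with two-sided permutation tests, all permutations below 10 samples and 100000 otherwise. Scipy 1.17.1 and pandas 2.3.3 were used. The named genes were PTX3 and TNFAIP6, the 5 genes with the highest Pearson's r with each in Takara, and per list up to 4 genes called in both kits in the same direction by smallest Takara p, or otherwise the 2 with the highest mean CPM. Others named (APCS, CRP, HAS2, ITIH1, AMBP, CXCL8, SELP, IL1B, TNF, CD14, MMP8, S100A8, CSF3R, CHI3L1, ELANE) were picked after their values were seen or for their role. So were the tested matrix genes other than CD44 (HAS3, HYAL1, HYAL2, HYAL3, CEMIP, CEMIP2, HMMR, VCAN).

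Labels give the same animal number to morning and evening samples, so the pairs are calves. Centred levels of the paired libraries correlated above 0.1 in 10 of 12 Takara pairs (median 0.243) and 3 of 12 Lexogen pairs (median 0.00398). Animal 20 was left out of comparisons of times because the labels give 14 morning and 15 evening RNA samples by title and the reverse by protocol. Alternatives were the sense counts, all expressed genes, other scalings, DESeq2 1.42.0, the calf as a block, both placements of animal 20, each run, and leaving out each calf. The tests were tried on simulated data.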

Additional observations from a re-analysis of the deposited data

Results flagged for a closer look

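Animal 20 was in no comparison, because its title and the numbers of samples per time disagree, and its libraries held both genes above every control library of the same kit. PTX3 was at 403 CPM in its Takara library, against a highest control level of 5.38 CPM, and at 113.3 CPM in its Lexogen library, against 2.49 CPM. TNFAIP6 was at 201 CPM in Takara, against 12.5 CPM, and at 117.3 CPM in Lexogen, against 22.4 CPM. These are 1 RNA sample of 1 calf measured with both kits and not independent of each other, and when the sample was taken was not tested.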

How the results depend on the processing

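The log2 fold changes of both genes between the times kept their sign under every alternative run. Animal 20 as control took all 4 under the threshold, with PTX3 at 1.72 and 3.17 and TNFAIP6 at 1.02 and 1.11 in Takara and Lexogen, and it left 0 DEGs in Takara (3804 at an unadjusted p under 0.05, edgeR) and 2 in Lexogen. TNFAIP6 in Lexogen also missed the threshold with the calf as a replicate block (1.28) and in run 2 alone (1.17). Leaving out 1 calf gave 5.84 to 6.28 for PTX3 and 3.06 to 3.48 for TNFAIP6 in Takara, and 6.17 to 7.06 (11 of 14 omissions, as PTX3 failed the filter in 3) and 1.58 to 2.28 in Lexogen. DEGs then numbered 2669 to 4082 in Takara and 348 to 747 in Lexogen, the fewest in Lexogen being without animal 16 (406), 18 (389), 36 (348) or 40 (368).

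DEGs in Takara numbered 931 in run 2 alone. In Lexogen they numbered 616 in the model of time alone, 3273 over all expressed genes, 1006 with DESeq2, 63 with the calf as a block, 402 in run 1 and 0 in run 2 (1275 at an unadjusted p under 0.05). The kit effect on PTX3 passed the threshold over all expressed genes (0.88) and with the size factors of DESeq2 (1.01). The interaction of run and time of TNFAIP6 in Takara, 0.0052, turned to -0.020 with sense counts, -0.0085 with size factors and -0.12 with the replicate block, all far within its SE.

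Correlations of the genes turned from 0.120 to -0.323 without 2 calves and to -0.017 without the log in Takara controls. Around the PTX3 step they turned to -0.297 (Takara heat, above) and -0.195 (Takara change, below) without 2 calves, to -0.088 (Takara change, above) and -0.187 (Lexogen heat, below) without the log, and from -0.323 to 0.825 (Lexogen heat, above) without 2 calves. Between kits, PTX3 before heat turned to -0.044 without 2 calves, and TNFAIP6 before heat reached 0.829 within run 2 (6 calves, exact permutation p = 0.0486). The causes were not tested. Of 365 alternative values, 301 kept their direction and side, or lay within 1.5 times a count. The alternatives for gene lists were chosen after seeing the data, and 26 of their 100 counts moved by over 1.5 times. The shallowest library held 4516761 reads on genes, where 3 reads are 0.664 CPM, so low PTX3 levels before heat rest on few reads.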
